A study of Rattus norvegicus with 24 samples.

Results

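B cells and the plasma cells that arise from them are governed by a small set of regulators, and 10 of these were looked for by gene symbol in liver and spleen of rats given cyclophosphamide. The annotation of the array names 6 of the 10 with a probe set of their own, among 14201 genes in all. The B cell regulators Ebf1 and Pou2af1 are measured, as are the plasma cell genes Prdm1, Xbp1, Mzb1 and Jchain, while Pax5, Spib, Bach2 and Irf4 are named by no probe set and were not analysed here. Where several probe sets name a gene, the one with the highest mean over all 24 arrays stands for it. The names were proposed with earlier results of these data in view, and the rule that finds them uses no fold change.

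The animals were male wild type Sprague-Dawley rats, 46 to 49 days old. The 4 groups of 3 rats received oral vehicle or oral cyclophosphamide at 40 mg/kg/day for 5 days, each treatment without or with a wood stick in the cage. Every rat gave 1 liver and 1 spleen array, so that 12 rats make 24 arrays. Cyclophosphamide is an alkylating cytostatic drug that is activated in the liver and damages dividing cells. Whether the RNA of plasma cells outlasts that of B cells under the drug was the question put to these genes.

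A B cell holds its identity through transcription factors such as EBF1 and PAX5, with the coactivator POU2AF1 bound to octamer proteins. When it becomes a plasma cell, the repressor PRDM1 (Blimp-1) shuts much of that programme down and XBP1, the transcription factor of the unfolded protein response, enlarges the secretory machinery. MZB1 helps immunoglobulin to fold in the endoplasmic reticulum, and the joining chain, encoded by Jchain, links immunoglobulin M and A into polymers. Many mature B cells of the spleen do not divide, and neither do long-lived plasma cells. Several of these genes are also used outside the lineage: Xbp1 in hepatocytes and the exocrine pancreas, Prdm1 in T cells and myeloid cells, Mzb1 in marginal zone B cells, and Ebf1 in fat and stromal cells.

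Of the 6 measured members, 4 have an entry in the RefSeq promoter table (build GRCr8), which gives 250 bases before the start of the gene and 50 after it. The promoters of Xbp1 and Jchain are shown because these are 2 plasma cell genes with different responses to the drug in spleen. Capitals mark an ER stress element, CCAAT and CCACG with 9 bases of any kind between them, searched on both strands, to which factors of the unfolded protein response bind.
Xbp1 (chr14:84604373-84604672, plus strand): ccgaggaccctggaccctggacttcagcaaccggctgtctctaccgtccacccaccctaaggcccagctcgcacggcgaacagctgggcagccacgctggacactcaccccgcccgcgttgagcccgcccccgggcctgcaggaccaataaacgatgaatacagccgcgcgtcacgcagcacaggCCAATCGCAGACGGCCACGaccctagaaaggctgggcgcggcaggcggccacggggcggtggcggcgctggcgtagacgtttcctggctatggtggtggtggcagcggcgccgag
Jchain (chr14:19822726-19823025, plus strand): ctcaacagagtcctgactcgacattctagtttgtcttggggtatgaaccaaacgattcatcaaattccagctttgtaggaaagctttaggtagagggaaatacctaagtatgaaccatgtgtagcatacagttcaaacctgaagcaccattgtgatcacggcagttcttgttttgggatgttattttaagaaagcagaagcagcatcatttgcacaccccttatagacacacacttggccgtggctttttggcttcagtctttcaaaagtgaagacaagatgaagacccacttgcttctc
The Xbp1 window holds 1 match, on its plus strand, from 65 to 47 bases before the start, and 22 of 33469 promoters of this length (0.0657%) hold one. The Jchain window holds none, nor do those of Ebf1 and Prdm1. The octamer ATGCAAAT, the site of the proteins that POU2AF1 joins, is in none of the 4 windows on either strand and in 1.78% of all promoters. A match is a string of letters and not a measured binding site.

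Some arrays stood apart before any gene was compared. Each liver array had 4924 to 6060 blank cells among 30980 probe sets and each spleen array 1021 to 1920, and the number of arrays limits the precision. The liver of drug rat 2003 had the most blanks, 6060. The spleens of 1001, 1003 and 1005 (vehicle, no wood) and of 2005 (drug, no wood) had over 1500, which divides the housings unevenly. The spleen of 2003 also carried strong pancreas markers.

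In spleen the 6 genes fell into different ranges of response. Ebf1, Pou2af1 and Mzb1 each dropped to between 7.68% and 12.9% of their vehicle level, Jchain to 53.8%, and Prdm1 and Xbp1 stood at 105% and 98.1%. In the fit by limma of 6 drug against 6 vehicle rats, 4 of the 6 members passed an adjusted p of 0.05, all of them lower. The background is high in this organ: 55.0% of 13614 tested genes passed, 26.9% as higher and 28.1% as lower. The count of members is therefore less informative than the size of the changes, which had a median of −3.35 (log2) for the 2 B cell members and −0.46 for the 4 plasma cell members, against −0.022 over all genes tested. In whole tissue, fewer cells of a type and less RNA per cell cannot be told apart.

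**Figure D1:**
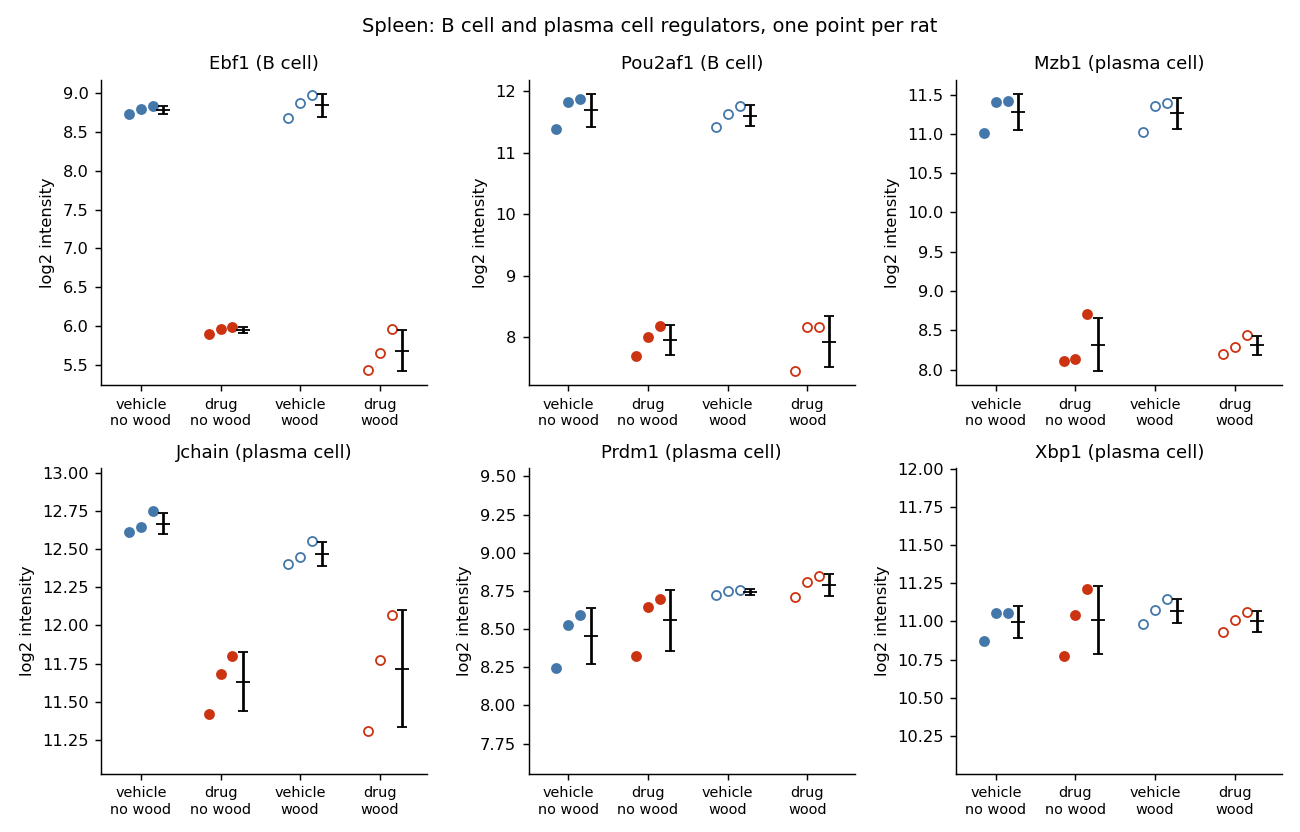
Log2 intensity of the 6 measured regulators in the spleen of each rat, in 4 groups of 3 rats, with the mean and SD of each group as bars. Drug rats lie below all vehicle rats for Ebf1, Pou2af1, Mzb1 and Jchain, and overlap them for Prdm1 and Xbp1. How many of all genes separate in this way was not counted, and 55.0% of tested genes passed in spleen. Each panel has its own axis, which does not start at 0.

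Pou2af1, the coactivator, had the largest fall of the 6 by the probe sets used. On the log2 intensity scale its vehicle spleens read 11.38, 11.87 and 11.82 without wood and 11.62, 11.76 and 11.42 with wood. The drug spleens read 8.18, 8.001 and 7.70 without and 8.17, 8.16 and 7.45 with wood. The treatments do not overlap, and the highest drug rat, at 8.18, lies far below the lowest vehicle rat, at 11.38. How many of all genes separate in this way, here and for the genes below, was not counted. The fall was 3.70 ± 0.16 (SE; adjusted p = 2.39e-07), and 7.68% of the vehicle level was left, with a 95% interval from 6.04% to 9.78%.

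Ebf1, which commits progenitors to the B lineage, read 8.80, 8.73 and 8.83 in vehicle spleens without wood and 8.87, 8.98 and 8.68 with wood. Under the drug it read 5.90, 5.98 and 5.96 without wood, and 5.43, 5.96 and 5.66 with wood. All 6 drug rats again lie below all 6 vehicle rats. The difference was −3.00 ± 0.091 (SE; adjusted p = 5.9e-08), or 12.5% left (95% interval 10.9% to 14.4%). Ebf1 has 2 further probe sets of its own, and, in a fit over all probe sets that name 1 gene, they gave larger falls, of −4.84 ± 0.10 (3.50% left) and −4.39 ± 0.38 (4.77% left). The drug spleens at the chosen probe set, 5.43 to 5.98, lie close to the liver range of that probe set, 4.73 to 5.43, and whether the reading there is a floor was not tested.

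Mzb1, an endoplasmic reticulum protein grouped here with the plasma cell genes, moved by nearly as much as Ebf1. Vehicle spleens read 11.01, 11.40 and 11.42 without wood and 11.03, 11.39 and 11.36 with wood. Drug spleens read 8.70, 8.14 and 8.11 without and 8.44, 8.29 and 8.20 with wood, which leaves a wide gap between the treatments. The difference was −2.95 ± 0.13 (SE; adjusted p = 2.92e-07), with 12.9% left (95% interval 10.6% to 15.8%). Over the 12 spleen arrays the gene most like Mzb1 was Pou2af1 (Pearson r = 0.994), followed by the ubiquitin ligase gene Syvn1 (0.992) and the protease gene Ctse (0.990). These values were taken from 12837 genes with a reading on every spleen array, and they share the division into drug and vehicle rats.

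Jchain, the joining chain, fell too, but by far less. Its vehicle spleens read 12.64, 12.61 and 12.75 without wood and 12.45, 12.40 and 12.55 with wood. Its drug spleens read 11.80, 11.42 and 11.68 without wood and 12.07, 11.31 and 11.77 with wood. The treatments do not overlap, although the drug rat 4001 at 12.07 lies close to the lowest vehicle rat at 12.40. The difference was −0.89 ± 0.12 (SE; adjusted p = 0.000172), which leaves 53.8% (95% interval 44.5% to 65.0%). The other probe set of Jchain gave −1.21 ± 0.13, or 43.3% left. By the same rule, the genes most like Jchain over the 12 spleen arrays were the platelet and endothelial gene Mmrn1 (r = 0.970), the transcription factor Ets1 (0.969) and the platelet chemokine Ppbp (0.968). These correlations also share the division into drug and vehicle rats.

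The 2 transcription factors of the plasma cell state did not pass. Prdm1 read from 8.25 to 8.76 in vehicle spleens (median 8.66) and from 8.33 to 8.85 in drug spleens (median 8.70). The ranges overlap almost wholly, and the difference was 0.073 ± 0.085 (SE; adjusted p = 0.492), an interval from 92.3% to 120% of the vehicle level. Xbp1 read from 10.87 to 11.15 in vehicle spleens (median 11.06) and from 10.77 to 11.21 in drug spleens (median 11.03). Its difference was −0.028 ± 0.081 (SE; adjusted p = 0.789), with an interval from 86.6% to 111%. Falls of the size seen for Jchain lie outside both intervals. The array reads Xbp1 with 1 probe set, and its spliced form was not analysed here.

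**Figure D2:**
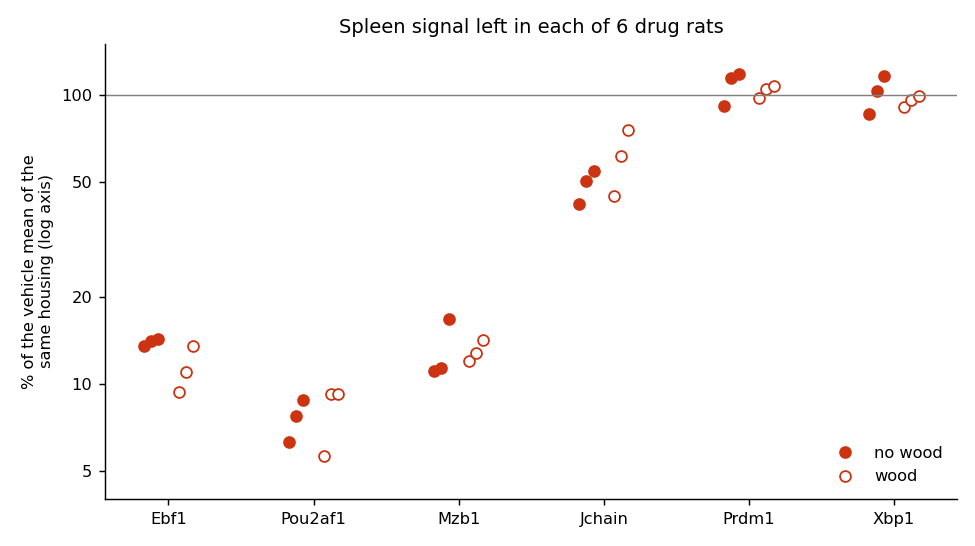
Spleen signal of each drug rat as a percent of the vehicle mean in the same housing, on a log axis, for the 6 regulators (filled, no wood; open, wood). Pou2af1 lies between 5.62% and 9.25%, Jchain between 42.0% and 75.8%, and Prdm1 and Xbp1 lie around 100%.

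Set against the vehicle mean of its own housing, each drug rat gives a share of signal left for each gene. Pou2af1 ranged from 5.62% to 9.25% (median 8.29%), Ebf1 from 9.40% to 14.3% (13.5%) and Mzb1 from 11.1% to 16.8% (12.4%). Jchain ranged from 42.0% to 75.8% (median 52.6%), Prdm1 from 91.4% to 118% (106%) and Xbp1 from 85.8% to 116% (97.7%). Within single rats, Jchain kept more of its signal than Ebf1, Pou2af1 and Mzb1 in 6 of 6, and so did Prdm1 and Xbp1 against Ebf1 and Pou2af1. Mzb1 kept more than Pou2af1 in 6 of 6 rats, but more than Ebf1 in only 3 of 6. The order of Ebf1 and Pou2af1 turns with the probe set, as the other Ebf1 probe sets put its level left below that of Pou2af1. The median change of the 4 plasma cell members exceeded that of the 2 B cell members by 2.89 log2 units; this is a description of chosen genes, and no p was computed for it. The plasma cell group was not uniform, with Mzb1 on the side of the B cell genes. Its median rests in part on Prdm1 and Xbp1, which are also used outside the lineage. Which cells gave their signal was not tested.

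The housing changed none of the member calls in spleen. Without wood 4 of 6 members passed as lower, beside 45.1% of all tested genes in either direction and 22.4% as lower. With wood 4 of 6 passed as lower, beside 38.4% and 18.5%. Pou2af1 stood at −3.73 without and −3.68 with wood, Ebf1 at −2.84 and −3.16, Mzb1 at −2.96 and −2.95, and Jchain at −1.04 and −0.75. The interaction is the drug effect with wood minus the drug effect without it. By limma it was passed by 0 of 6 members and by 0.705% of all genes. At an unadjusted p under 0.05 the interaction was passed by 0 members, beside 1770 of 13614 genes. Its estimates ran from −0.32 for Ebf1 (95% interval −0.73 to 0.087) to 0.28 for Jchain (−0.26 to 0.83). For wood against no wood itself, 0 of 6 members passed by limma (12.1% of all genes did). An unadjusted p under 0.05 was held by 1 member, beside 4418 of 13614 genes. The member was Prdm1, at 0.26 ± 0.085 (SE; adjusted p = 0.0706). The 3 vehicle spleens without wood read 8.25, 8.53 and 8.59 for Prdm1 and the 3 with wood 8.76, 8.72 and 8.75. All vehicle spleens without wood had over 1500 blanks and none with wood did. Among vehicle rats, housing and this division therefore cannot be told apart, and the wood effect was not fitted with it as a term. With the division by blanks as a term in the fit, the spleen drug effects were −3.83 for Pou2af1, −2.99 for Ebf1, −3.06 for Mzb1, −0.87 for Jchain, 0.14 for Prdm1 and −0.15 for Xbp1.

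The lists around these genes were larger. Their spleen counts stand beside 26.9% of all tested genes called higher and 28.1% called lower. All 11 measured of 15 B cell surface and signalling genes fell in spleen, with a median of −3.26. The receptor chain Cd79b stood at −5.20 ± 0.29 (SE), the antigen Ms4a1 (CD20) at −5.10 ± 0.30, the low affinity IgE receptor Fcer2 at −4.25 ± 0.24 and the adaptor Blnk at −3.97 ± 0.11. Cd22, an inhibitory receptor, and the kinase Btk had smaller falls, of −1.08 and −1.24. Of 13 measured of 16 transcription factors of lymphoid and B lineage cells, 10 fell, 1 rose and 2 did not pass (median −0.51). Bcl11a, needed for early B cells, stood at −4.39 ± 0.19, Mef2c at −1.75, Runx3 at −1.68 and Foxp1 at −1.40. Pou2f2 (OCT2), a partner of POU2AF1, fell by 0.51 ± 0.096, and Id3, an inhibitor of E proteins, rose by 0.33 ± 0.077.

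Of 13 measured of 18 genes of plasma cell secretion and surface, 8 fell, 1 rose and 4 did not pass, with a median of −0.36. The largest falls were those of the elongation factor Ell2 at −1.73 ± 0.12 (SE), the receptor Tnfrsf17 (BCMA) at −1.42 ± 0.12, the chaperone Creld2 at −1.29 ± 0.13 and the disulphide isomerase Txndc5 at −0.64 ± 0.098. Sel1l, a component of protein disposal from the endoplasmic reticulum, rose by 0.56 ± 0.082. The syndecan gene Sdc1, a surface marker of plasma cells that epithelia also carry, stood at 0.13 ± 0.16 (adjusted p = 0.522). Of 14 names listed for immunoglobulin chains and their transport 2 are measured: Ighvl1 fell by 2.52 ± 0.11 and the immunoglobulin transport receptor Pigr stood at −1.83 ± 0.26. Most genes of secretion are used by every secreting cell, and all of these values are for whole spleen.

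**Figure D3:**
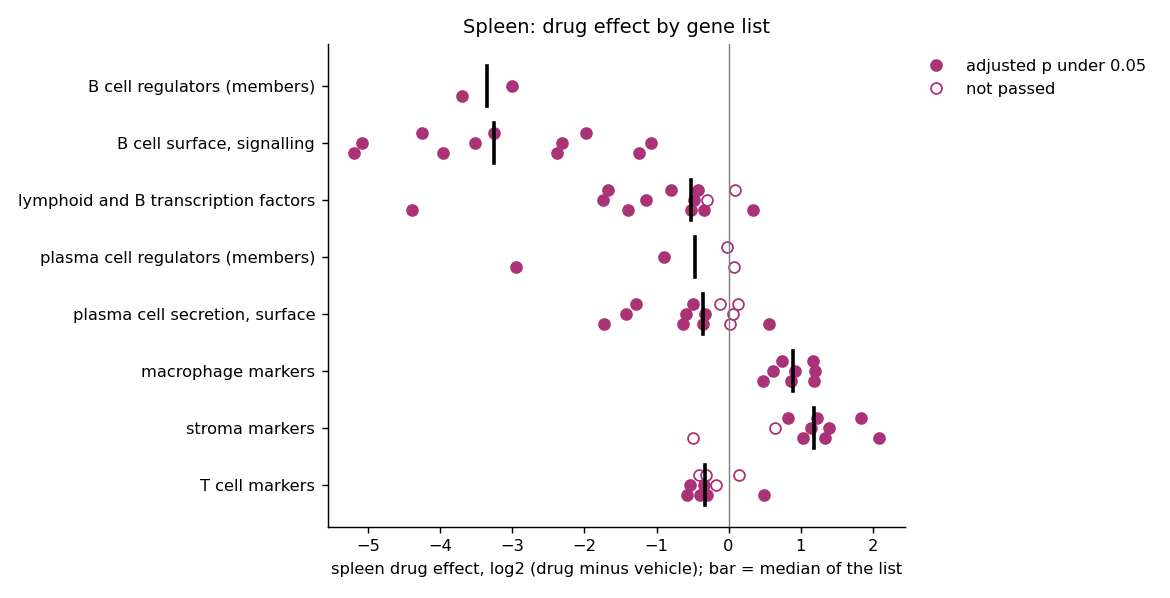
Drug effect in spleen, as log2 of drug minus vehicle, for each measured gene of 8 lists, with filled points for an adjusted p under 0.05 and a bar at the median of the list. The B cell members and surface genes centre at −3.35 and −3.26, the plasma cell lists at −0.46 and −0.36, and the macrophage and stroma markers at 0.90 and 1.18.

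Some marker lists of other cells moved with the treatment in spleen, and their part in the member values was not tested. Their counts stand beside 26.9% of all tested genes called higher and 28.1% called lower. Of 8 measured macrophage markers 8 rose, and their summed intensity was 19366 to 25269 in vehicle and 37722 to 43331 in drug rats. Of 10 stroma markers 8 rose and 2 did not pass, with sums of 4733 to 6248 and 11783 to 14048. Of 10 T cell markers 1 rose, 5 fell and 4 did not pass, with overlapping sums of 8202 to 9735 and 5736 to 9106. Of 6 measured markers of plasmacytoid and other dendritic cells 1 rose, 2 fell and 3 did not pass, with sums of 4374 to 5630 and 5133 to 5790. In either direction, the T cell and dendritic cell counts lie near the 55.0% of all tested genes. None of the 7 hepatocyte markers that could be tested in spleen passed, of 9 measured. Of 10 exocrine pancreas markers 9 could be tested, with a median of 1.20, and 1 rose, the elastase gene Cela1 at 2.60 (adjusted p = 0.00364). Their sum was 402 to 1285 in vehicle spleens, 21190 in the spleen of drug rat 2003 and 620 to 1585 in the other drug spleens, so that it is also mostly higher in drug rats without 2003. Xbp1, a gene used in the pancreas, read 11.04 in that spleen, inside the range of the vehicle rats. Without this rat the spleen differences were −3.71 for Pou2af1, −3.01 for Ebf1, −2.91 for Mzb1, −0.84 for Jchain, 0.13 for Prdm1 and −0.036 for Xbp1.

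Of the members, only Jchain passed in liver, and at 1 of its 2 probe sets. There 1 of 5 testable members was called, as lower, beside 0.812% of 12683 genes in either direction and 0.647% as lower. Without wood alone 0 of 5 members passed by limma (0.150% of all genes did). An unadjusted p under 0.05 was held there by 1 member, beside 1512 of 12683 genes. With wood alone 0 of 5 passed (0.0473% of all genes), and 2 had such a p, beside 1030 genes. Pou2af1 was blank on 11 of 12 liver arrays and was not tested. Hepatocyte markers summed to 81533 to 93613 in liver and 282 to 969 in spleen, while the B cell surface markers summed to 563 to 1139 in liver and 21357 to 28388 in vehicle spleens. Both organs thus matched their labels. Of the wider lists, 0 of 10 B cell surface genes and 0 of 13 plasma cell genes passed in liver for the drug effect. Their medians were −0.30 and 0.25, and 1 of 11 transcription factors fell. The 10 B cell surface genes had median liver levels from 3.64 for Cd79b (blank on 4 of 12 arrays) to 8.70 for Cd22. Whether a fall could show at the low levels was not tested. Of the 2 measured genes of the immunoglobulin list, Ighvl1 fell in liver, as Jchain did at the probe set used, with a difference of −2.21 ± 0.36 (SE; adjusted p = 0.0285), and Pigr stood at −0.080 ± 0.062 (adjusted p = 0.599).

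**Figure D4:**
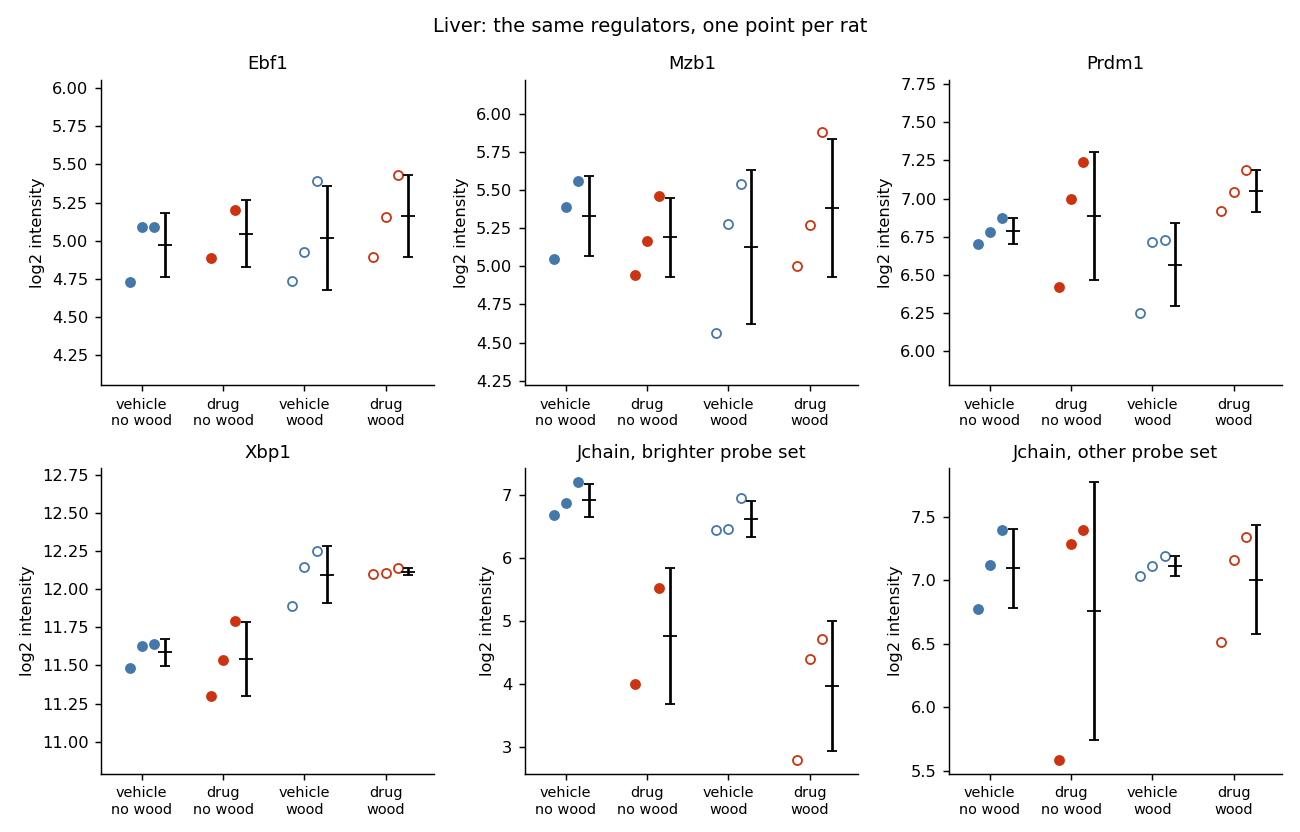
Log2 intensity of 5 regulators, without Pou2af1, in the liver of each rat, in 4 groups of 3 rats, with the mean and SD of each group as bars; blank cells are left out, and each panel has its own axis, which does not start at 0. Jchain is lower under the drug at the probe set that is brighter over all 24 arrays and overlaps at the other one. Xbp1 reads higher in the groups with wood, a difference that did not pass.

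Jchain in liver read 7.20, 6.68 and 6.87 in vehicle rats without wood and 6.45, 6.45 and 6.95 with wood. Under the drug it read 3.996 and 5.52 without wood, with rat 2003 blank, and 4.71, 2.79 and 4.40 with wood. The 5 drug readings lie below all 6 vehicle readings and differ widely among themselves. The difference was −2.40 ± 0.40 (SE; adjusted p = 0.038), which leaves 18.9% (95% interval 10.03% to 35.6%), in a fit that drops the blank array. Whether the low drug readings, 2.79 to 5.52, lie at a floor was not tested. The other Jchain probe set gave no call: vehicle livers read from 6.77 to 7.39 and drug livers from 5.58 to 7.40, with a difference of −0.22 ± 0.31 (adjusted p = 0.791). In liver that probe set is the brighter of the pair, with a vehicle mean of 7.10 against 6.77. The call also rests on single rats, as it held in 4 of 12 fits without 1 rat and was lost without any vehicle rat or without 2001 or 4005 (adjusted p up to 0.0931). Those 4 include the fit without 2003, which is blank for Jchain. That fit could not change the difference, −2.40 (adjusted p = 0.0379).

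The other testable members gave no call in liver. Ebf1 read from 4.73 to 5.39 in vehicle and from 4.89 to 5.43 in drug livers, with 2003 blank. Mzb1 read from 4.56 to 5.56 and from 4.94 to 5.88. These readings overlap between the treatments and lie far below those of the same probe sets in vehicle spleen. Prdm1 read from 6.25 to 6.87 in vehicle and from 6.42 to 7.24 in drug livers, with a difference of 0.29 ± 0.15 (SE; adjusted p = 0.414). Of 8 measured markers of macrophages, cells in which Prdm1 is also used, 4 fell and 4 did not pass in liver. They summed to 4872 to 6026 in vehicle and 2511 to 4008 in drug livers, and their part in the liver values was not tested.

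Xbp1 was high in liver and did not respond to the drug there within its interval. It read 11.48, 11.64 and 11.63 in vehicle livers without wood and 11.79, 11.54 and 11.30 in drug livers without wood. With wood it read 12.14, 12.25 and 11.89 in vehicle and 12.11, 12.14 and 12.10 in drug livers. The drug difference was −0.011 ± 0.099 (SE; adjusted p = 0.969), an interval from 85.1% to 116%. The readings separate by housing and not by drug: all 6 livers with wood lie above all 6 without. That difference was 0.54 ± 0.099 and did not pass (adjusted p = 0.269, unadjusted p = 0.000327). By limma 0 of 12683 liver genes passed for wood, and 781 had an unadjusted p under 0.05. How many of all liver genes separate by housing in this way was not counted. In spleen the wood difference of Xbp1 was 0.032 ± 0.081, and the difference between the organs in this respect was not tested.

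**Figure D5:**
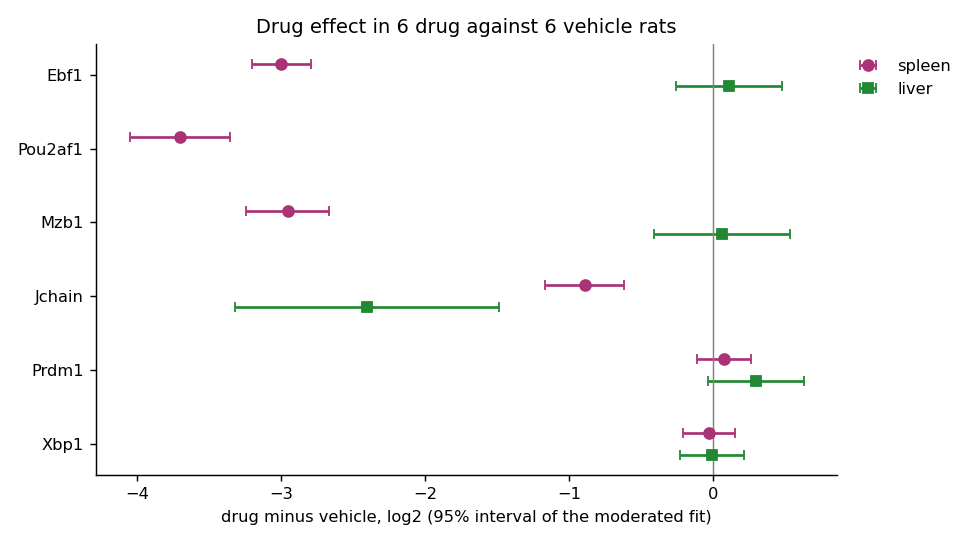
Drug minus vehicle difference (log2) of each regulator in spleen (circles) and liver (squares), over 6 drug and 6 vehicle rats, with the 95% interval of the moderated fit; Pou2af1 could not be tested in liver, and Ebf1 and Jchain have 5 drug livers. Ebf1 and Mzb1 lie near −3 in spleen and near 0 in liver, where their readings are low under both treatments. Jchain, at the probe set used, lies further below 0 in liver than in spleen, and its other probe set gives the opposite order.

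The drug effects of the 2 organs were compared in 1 fit of all 24 arrays. Here 3 of 5 testable members differed, beside 33.1% of 12474 genes. Ebf1 had a drug effect lower in spleen by −3.11 ± 0.18 log2 units (SE; adjusted p = 9.45e-09) and Mzb1 by −3.01 ± 0.25 (1.58e-07). Both read low in liver under either treatment, Ebf1 from 4.73 to 5.43 and Mzb1 from 4.56 to 5.88. Their vehicle spleens had means of 8.81 and 11.27. Whether a fall could show at the liver levels was not tested, so these 2 differences do not show that liver cells were spared. For Jchain the direction depends on the probe set. At the probe set used the fall was smaller in spleen, by 1.51 ± 0.41 (adjusted p = 0.00954), and at the other one it was larger in spleen, with a difference of −0.98 ± 0.34 (adjusted p = 0.0393). The mean of both gave 0.19 (adjusted p = 0.579), and the first value did not pass without rat 2001 (adjusted p = 0.0577). These data therefore give no direction for the organ difference of Jchain. Of the other Ebf1 probe sets, both passed, at −5.12 and −3.75. Prdm1 at −0.22 ± 0.17 (adjusted p = 0.355) and Xbp1 at −0.016 ± 0.13 (adjusted p = 0.939) did not pass.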

How the data were processed

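The authors deposited 1 log10 intensity per probe set and array, made from the scanned arrays; the method for this is not given in the sources at hand. The base was inferred: read as log10 the values span 2143-fold without the lowest and highest 1%, read as log2 10.1-fold. The labels give 5 µg of RNA for each rat Affymetrix array. All 24 arrays were used. Values were multiplied by log2(10), with no further scaling, and blank cells (10.5%) were left missing.

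The array annotation gives 1 gene for 20792 of the 30980 probe sets, several genes for 436 and no gene for 9752. A gene with more than 1 probe set was read at the one whose log2(intensity + 16) was highest on average. Each tissue was fitted with 4 group means by limma 3.58.1 in R 4.3.3 (lmFit, contrasts.fit, eBayes), for genes with a value in every group, and p values were adjusted by Benjamini-Hochberg over all genes of a contrast. The drug effect is the mean of the effects without and with wood. SE and intervals are those of the moderated fit. On simulated data the liver fit found 57% of changes of 1 log2 unit and 84% of changes of 2. The spleen fit found 82% and 93%. False calls numbered 8 in liver and 9 in spleen.

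The members and the lists around them were chosen with earlier results of these data known. From each list up to 4 genes are named, the largest called changes in spleen of 1 sign in both housings. For Mzb1 and Jchain the 3 genes of highest correlation are named, with genes named by a locus number alone passed over. Cd22, Btk, Pou2f2, Id3, Sel1l and Sdc1 were named after their values were seen. A within-array difference of Jchain and Pax5 had been planned; without a Pax5 probe set, the percent of the vehicle mean per rat was given instead. Each rat is 1 replicate. Liver and spleen of a rat share its number: across 10530 genes, their deviations from the group means correlated from −0.058 to 0.170. Alternatives were other scalings, filters, probe set rules and models, and fits without each rat. The other probe sets of a member were added after seeing the data.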

Additional observations from a re-analysis of the deposited data

Results flagged for a closer look

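The drug effects of 3 of 5 testable members differed between the organs, beside 33.1% of 12474 genes. The test was of the difference in 1 fit of all 24 arrays with limma. Ebf1 had a drug effect of −3.00 in spleen and 0.11 in liver, a difference of −3.11 (adjusted p = 9.45e-09). Mzb1 had −2.95 and 0.057, a difference of −3.01 (adjusted p = 1.58e-07). Ebf1 and Mzb1 read low in liver under both treatments, and whether a fall could show there was not tested. Jchain had −0.89 and −2.40, a difference of 1.51 (adjusted p = 0.00954), but its other probe set gave −1.21 and −0.22, a difference of −0.98 (adjusted p = 0.0393), so that the direction is not settled. No group has the 4 rats that a formal test for an outlying value within a group needs.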

How the results depend on the processing

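The spleen counts of the drug effect stayed within 3 to 4 members under all alternatives, the 3 being the filter at or above the median level, which leaves out Ebf1. The spleen falls ran from −3.83 to −3.58 for Pou2af1, from −4.84 to −2.69 for Ebf1, from −3.06 to −2.89 for Mzb1 and from −1.21 to −0.79 for Jchain, all of them past the threshold. The liver count of 1 was 0 with genes at or above the median level and 0 with a value on every array, both of which leave out Jchain, and 0 to 1 without single rats. The organ difference count of 3 was 1 with a value on every array, where Ebf1 and Jchain are left out. It was 2 with the mean of all probe sets, 2 with genes at or above the median level and 2 to 3 without single rats. With the animal as a replicate block it was 3, and no call changed. On the scale with an offset of 16 it was 4, as Pou2af1 enters there and passes. That scale reads blanks as 0, and Pou2af1 was blank on 11 of 12 liver arrays. Its pass therefore mostly restates the spleen fall and cannot show an organ difference. The plasma cell minus B cell difference of 2.89 was 2.69 on the scale with an offset of 16, 3.35 with the mean of all probe sets and 2.83 to 3.00 without single rats. Of the values that passed, 1 changed sign: the organ difference of Jchain, 1.51, was −0.98 (adjusted p = 0.0393) at its other probe set. The other changes of sign were of values that did not pass, and the cause was not tested. With median centring Xbp1 stood at 0.0082 in spleen, 0.0048 in liver and 0.0034 for the organ difference, and Mzb1 at −0.026 for the interaction. Ebf1 in liver stood at −0.20 with the offset, −0.29 with the mean of probe sets and −0.64 at another probe set. Without single rats Xbp1 ran from −0.078 to 0.031 in spleen, from −0.073 to 0.049 in liver and from −0.037 to 0.014 for the organ difference, and Mzb1 in liver from −0.083 to 0.16. The interaction then ran from −0.081 to 0.29 for Pou2af1, −0.17 to 0.048 for Prdm1, −0.20 to 0.017 for Xbp1 and −0.10 to 0.21 for Mzb1.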
